A study of Mus musculus with 7 samples.

Results

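The widest peaks of 2 nuclear receptors were described, namely every peak of 200 bp or more in the deposited lists of the glucocorticoid receptor (GR) and of PPARα. The members were chosen by the peak width measured in the same lists, so width and the values that go with it are given as a description. The limit was met by 129 of 1157 GR peaks (11.1%) and 78 of 1651 PPARα peaks (4.72%), or 207 of 2808 peaks in all. The lists were kept apart and then matched wherever peaks shared at least 1 bp. Positions are on the mouse build mm9.

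Both lists came from chromatin immunoprecipitation with sequencing (ChIP-seq) in BFU-E (burst-forming unit erythroid), early progenitors of red blood cells that had been sorted from the livers of 129/SvImJ mouse fetuses at stage E14.5 and cultured with SCF, IGF-1 and erythropoietin. Per the labels, the cells used here had received 100 nM dexamethasone, a ligand of GR, together with 10 μM GW7647, a synthetic ligand of PPARα, for 4 h. The series has 7 samples, of which 5 (both antibodies in untreated cells and after dexamethasone, and the input as a sample of its own) were not analysed here, so no effect of either compound was measured. There was 1 library per antibody, called against 1 shared input library, and no value has a replicate check. In the PPARα table, the ChIP read file named in the header bears the mark for dexamethasone only, so the treatment of that library rests on its sample label. After removal of duplicates the libraries held 7516221 reads (GR), 1959992 reads (PPARα) and 30047397 reads (input), so that the PPARα library had 0.261 times the reads of the GR library.

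GR and PPARα are transcription factors of the nuclear receptor family, which bind short response elements in DNA and recruit cofactors once a ligand is bound. PPARα does so as a partner of RXR. Factors of this kind usually give narrow ChIP-seq peaks around 1 element, so a wide interval can hold several bound elements side by side. Intervals can also be wide where sequence that is repeated in the genome, such as satellite or ribosomal DNA, draws reads from many copies to 1 place of the assembly, in input DNA as well as in ChIP DNA. The deposited lists carry no sequence and no gene names, and no genes or repeats were assigned here.

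The members were few but held most of the reads in peaks. Wide GR peaks measured 201 to 5876 bp (median 286 bp) and held 13 to 2917 reads each (median 59), where the 1028 narrower GR peaks had a median of 8 reads. Together they held 16581 of the 28925 reads in GR peaks (57.3%) on 33.4% of the peak length. Wide PPARα peaks measured 200 to 7069 bp (median 303.5 bp) and held 9 to 4488 reads (median 58), where the 1573 narrower ones had a median of 6. They held 32654 of 46986 reads in PPARα peaks (69.5%) on 34.2% of the peak length. Of these 32654 reads, 24432 lay in 13 neighbouring peaks at the start of chromosome 9, and the other 65 wide PPARα peaks held 8222. Nothing is tested in these values, since the same tables chose the members. The limit cuts through a continuous range. The 3 GR peaks just below it were 199 bp wide with 14, 17 and 27 reads, and the 3 just above it were 201 bp wide with 15, 15 and 45. The PPARα peaks next to it were 197, 198 and 199 bp wide with 14, 33 and 78 reads, and those at 200 bp had 13, 17 and 74.

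**Figure D1:**
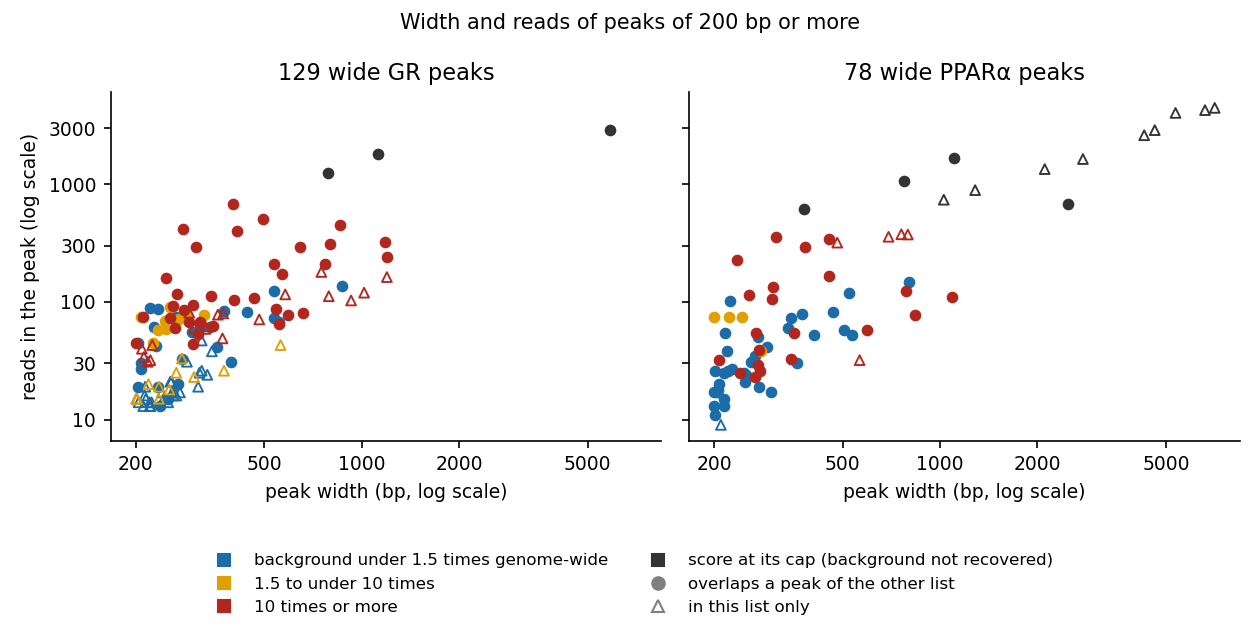
Width in bp (horizontal, log scale) and reads per peak (vertical, log scale) of the 129 wide GR and 78 wide PPARα peaks. Colours give the recovered background of the peak caller, filled circles overlap a peak of the other list and open triangles do not. The 9 black triangles at the upper right of the PPARα panel lie at the start of chromosome 9, and GR peaks of low background without a PPARα partner crowd at the lower left, between 13 and 47 reads.

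In the GR list the larger read counts did not go with higher folds. Each fold in the lists is the authors' value, the reads at the summit over the background that the peak caller expected there. The median fold of wide GR peaks was 19.6, against 35.5 for narrower ones. For wide PPARα peaks it was 76.9, against 125.54. At the background the caller assigns to the whole genome, a single read at the summit gives a fold of 5.92 in the GR list and 25.1 in the PPARα list, because the libraries differ in depth. Folds are therefore not compared across the lists. As a reference, 4 reads at the summit at that background give a fold of 23.7 in the GR list, and 3 give 75.3 in the PPARα list. Each is called the smallest callable fold below, as a label only. The caller's score rests on the reads in the whole peak, and the fewest in any peak were 6 (GR) and 4 (PPARα). The counts of 4 and 3 are therefore not known to be its limits at the summit. A fold below the reference goes with a raised background, fewer reads at the summit, or both. Of the wide GR peaks, 66 of 129 (51.2%) had such a fold, where 20.7% of all GR peaks had one. In the PPARα list it was 38 of 78 (48.7%), where 15.1% of all PPARα peaks had one. A fold of 10 or more, the limit of the authors' shorter lists, was reached by 80 wide GR peaks (62.0%, against 91.4% of all GR peaks). In the PPARα list 68 wide peaks reached it (87.2%, against 98.3% of all).

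The background of each wide peak was recovered from its score, which follows from the reads in the peak and the reads expected there. It is given as a multiple of the genome-wide value. Recovery was possible for 126 of 129 wide GR peaks and 65 of 78 wide PPARα peaks. The other 3 and 13 sit at the highest score written, 3100. The recovered backgrounds gave a whole number of reads at the summit, within 0.05 reads, for 120 of 126 GR peaks and 65 of 65 PPARα peaks. A true summit height is a whole number. The GR peak at chr17:83717795-83718031 came out at 0.811 times the genome-wide value, which the caller uses as its minimum, so the recovered value there is off.

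The working name of repeat-like loci fitted only some of the members, as far as the background shows it, and repeat content itself was not measured. In 38 of 126 wide GR peaks and 33 of 65 wide PPARα peaks the background lay within 1% of the genome-wide value. The range ran up to 108 times in the GR list and 91.6 times in the PPARα list. The wide GR peaks were then described in 3 classes, with limits chosen after the values were seen. Low background, under 1.5 times, held 53 peaks. Middle background, from 1.5 to under 10 times, held 20, and high background, 10 times or more, held 53. Among wide PPARα peaks the classes held 35, 4 and 26. All 53 GR peaks of high background had a fold below the smallest callable one, as did 9 of 20 in the middle class and 1 of 53 in the low class. The reads in a GR peak were 20.2 times the expected reads in the low class (median), 8.88 times in the middle class and 2.33 times in the high class. For PPARα these medians were 110.94 in the low class and 4.45 in the high class. The classes were cut on the same expected reads that divide here and enter the folds, so the fall across classes is partly built in.

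**Figure D2:**
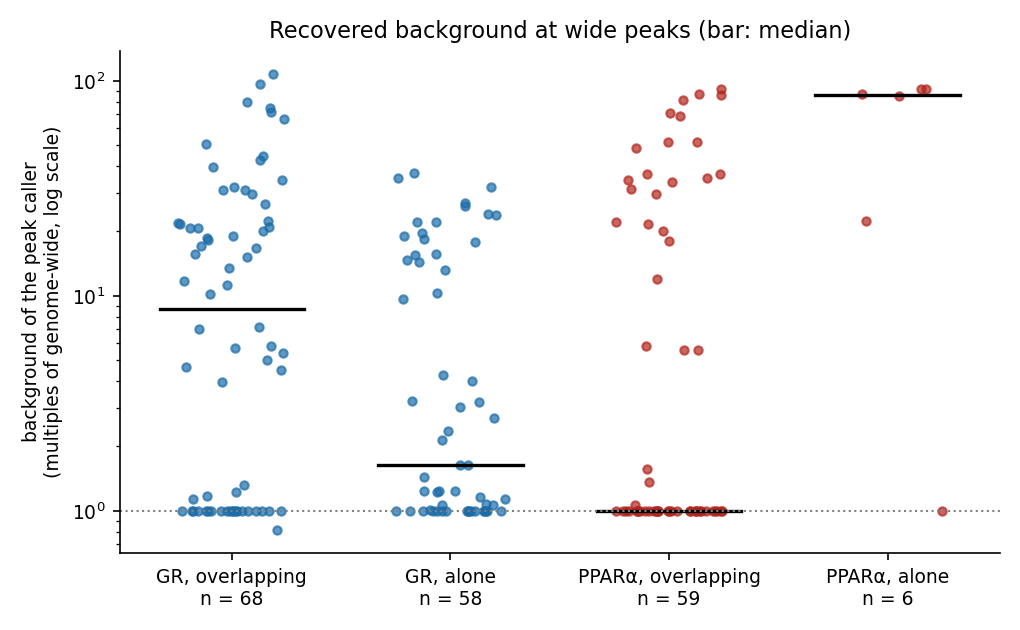
Background that the peak caller used at each wide peak, as a multiple of the genome-wide value (vertical, log scale), for peaks that overlap the other list and peaks that do not. Each point is a peak, the bar is the median, and the dotted line is the genome-wide value. Overlapping and unmatched GR peaks both spread from 1 to over 10 times, while 5 of the 6 unmatched PPARα peaks with a recovered background lie above 10 times.

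The low class held the members with the highest folds. These were narrow by the standard of the list, with a median of 259 bp for GR and 250 bp for PPARα, but 1 locus reached 869 bp. That locus, chr3:9527780-9528648, held 138 GR reads, and the PPARα peak inside it, 802 bp wide, held 148 reads. In the GR list its fold was 107, in the PPARα list 577, and the background was at the genome-wide value in both. At chr12:109587527-109588063 the GR peak held 125 reads over 537 bp and the PPARα peak 120 reads over 524 bp. At chr17:14135952-14136394 each library had 82 reads, over 443 bp (GR) and 466 bp (PPARα). The locus chr11:54987219-54987594 held 84 GR and 79 PPARα reads. At these 4 loci the raw counts of the libraries were within 10 reads of each other, although the libraries differed in depth as given above.

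The highest folds among wide GR peaks were in the same class. The first was at chr17:16286998-16287232 (255, with 88 reads and 57 reads at the summit), the next at chr9:96417172-96417438 (224, with 75 reads). They were followed by chr1:81372079-81372299 (201, 89 reads), chr13:23836960-23837190 (184, 42 reads) and chr10:12408688-12409027 (178, 61 reads). Each of the 5 overlapped the PPARα list, but with no wide PPARα peak at 3 of them. At chr17:16286998 the PPARα peak was 114 bp wide with 97 reads, and at chr9:96417172 it was 199 bp wide with 78 reads. At chr13:23836960 there were 2 PPARα peaks, which held 30 reads together and of which the wider measured 90 bp. Among wide PPARα peaks the highest fold was at chr1:81372070-81372293 (803, 101 reads), the partner of the third GR peak above. The fold was 603 at chr1:170517266-170517484 (38 reads) and 577 at both chr12:109587524 and chr3:9527788, described above. At chr18:53223096-53223387 it was 552 (41 reads).

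Sharing within the low class of GR peaks followed the number of reads. Every one of the 13 peaks that held 50 reads or more had a PPARα partner, and 12 of the 40 with fewer had one. In total 25 of the 53 overlapped (47.2%, exact 95% interval 33.3 to 61.4%, where 64.9% of all GR peaks did), with a median of 56 reads and a median fold of 94.8. The 28 without a partner had a median of 17 reads and a median fold of 35.5. Scaled by 0.261 to the depth of the PPARα library, their reads came to 3.39 to 12.3 (median 4.43), and the fewest reads in any PPARα peak was 4. At the loci of the 25 with a partner, PPARα reads were 0.714 to 1.37 times GR reads, beside the depth ratio of 0.261. Only loci with a PPARα call enter that range. Why these 28 had no PPARα call was not tested. The largest, at chr11:94135551-94135870, held 47 GR reads over 320 bp with 21 at the summit and a fold of 124.4. It had no PPARα peak at a scaled count of 12.3 reads. The second, at chr7:87099788-87100131, held 38 reads with a fold of 59.2. In the PPARα list the low class was shared almost throughout. There 34 of 35 overlapped a GR peak (97.1%, interval 85.1 to 99.9%), where 46.3% of all PPARα peaks did. The exception, chr4:84385315-84385524, had 9 reads and 3 reads at its summit.

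An estimated false discovery rate (FDR) above 5%, as the authors' caller gave it, was found for 11 wide GR peaks (8.53%, where 1.12% of all GR peaks had one) and for none of the wide PPARα peaks (where it was 0.0% of all). In the GR list these were not the weakest members. They included the peaks of folds 255, 224 and 201 named above, with an FDR of 12.5%, 7.14% and 14.29%. They also included peaks of high background, such as chr12:3109862-3110141 with 419 reads and a fold of 5.17 (10.0%). The others of high background were chr2:98503760 (fold 6.23, FDR 9.09%), chr2:98505034 (6.64, 6.25%) and chr6:3150766 (19.2, 8.33%). The wide GR peaks had a median FDR of 0.82%. Filtering the list at an FDR of 5% thus removed some of its members of highest fold and some of high background.

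The 20 GR peaks of middle background split by reads in the same way. The 8 that held 50 reads or more each had a PPARα partner, and 1 of the 12 with fewer had one. Together, 9 of the 20 overlapped (45%, interval 23.1 to 68.5%), where 64.9% of all GR peaks did. The largest, at chr6:145881294-145881548, held 91 GR reads and 74 PPARα reads, with a background of 5.86 times in the GR and 5.87 times in the PPARα list. At chr17:7146208-7146414 each library had 74 reads. At chr3:120952682-120952954 there were 72 GR and 74 PPARα reads. Of the 11 without a partner, 5 lay within 1 stretch, chr1:172994366-173012218. They held 117 reads in all, none overlapped a PPARα peak, and their backgrounds were 2.14 to 3.24 times the genome-wide value.

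The 53 GR peaks of high background were wider (median 359 bp) and held more reads (median 87) than the low class, with folds of 2.95 to 22.7. Of them, 34 overlapped a PPARα peak (64.2%, interval 49.8 to 76.9%), near the 64.9% of all GR peaks. Here a large number of reads did not go with a partner in every case, as 13 of the 45 with at least 50 reads had none. The largest without a partner was chr10:21862099-21862848, with 180 reads over 750 bp, a fold of 4.71 and a background of 35.2 times. It was followed by chr11:3093224-3094419 with 163 reads over 1196 bp. At chr8:19924074-19927166 a pair of members held 232 reads, and neither had a partner. The lowest fold of any GR member, 2.95, belonged to 1 of this pair.

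Some of these lay at the starts of the assembled chromosomes, where mouse chromosomes have their centromeres. Of the 129 wide GR peaks, 10 started before 3.5 Mb (7.75%), where 2.16% of all GR peaks did. Each of the 10 was of the high class. In the PPARα list 16 of 78 did (20.5%), where 3.27% of all PPARα peaks did, and 13 of these 16 were neighbours on chromosome 9. Some members also lay close to one another. Taking gaps of up to 20 kb, 34 GR members fell into 12 groups and 25 PPARα members into 5. The largest GR group had 6 members at chrX:166427204-166444374, with 461 reads and backgrounds of 13.2 to 20.9 times, and 4 of the 6 overlapped a PPARα peak. Neighbours in a group may share 1 source of reads and are not independent loci.

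The deepest loci stood in both lists, with 1 exception described below. At chr2:98502370-98507509, the stretch near 98.5 Mb, each list had 4 wide peaks in register. They held 1833, 1252, 510 and 402 GR reads against 1695, 1062, 345 and 292 PPARα reads, from the largest to the smallest. The GR folds there were 4.68, 4.73, 6.23 and 6.64. The background was recovered for the smaller 2, at 79.9 and 75 times in the GR list and 85.7 and 81.0 times in the PPARα list. Chromosome 17 near 40 Mb had the widest GR peak, chr17:39979900-39985775, with 2917 reads over 5876 bp and a fold of 12.5. The PPARα list had 4 wide peaks in it, with 77, 25, 110 and 685 reads, of which the last was 2487 bp wide with a fold of 48.4. The background at the other 3 was 34.4 to 36.8 times. The summit of the GR peak, chr17:39979900, and that of the widest PPARα peak inside it, chr17:39983270, fell on the same base.

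Duplicate removal limits such loci, because 1 read is kept per position and strand, so a peak can hold at most 2 reads per bp. The corresponding limit of the summit is 84 reads in the GR list and 76 in the PPARα list. Exactly 84 reads, within 0.1, were recovered at 5 wide GR peaks, on chromosome 2 (chr2:98503760 and chr2:98505034), chr6:103599021, chr9:35112794 and chr12:3109862. In the PPARα list 76 reads were recovered at chr12:3109857. The densest was chr9:35112794-35113193, with 679 GR reads (1.70 per bp) and 614 PPARα reads (1.62 per bp). The input there, read from the GR score, held 694 reads (1.73 per bp), and so filled 86.7% of the possible positions. In that locus all 3 libraries had similar counts of distinct reads, whereas the input had 4 times the reads of the GR library and 15.3 times those of the PPARα library. The folds given there were 4.61 for GR and 17 for PPARα, beside those depth ratios. At chr12:3109862-3110141 the densities were 1.5 (GR), 1.14 (PPARα) and 1.55 (input) reads per bp. How far lost duplicates set the folds of these loci was not tested.

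**Figure D3:**
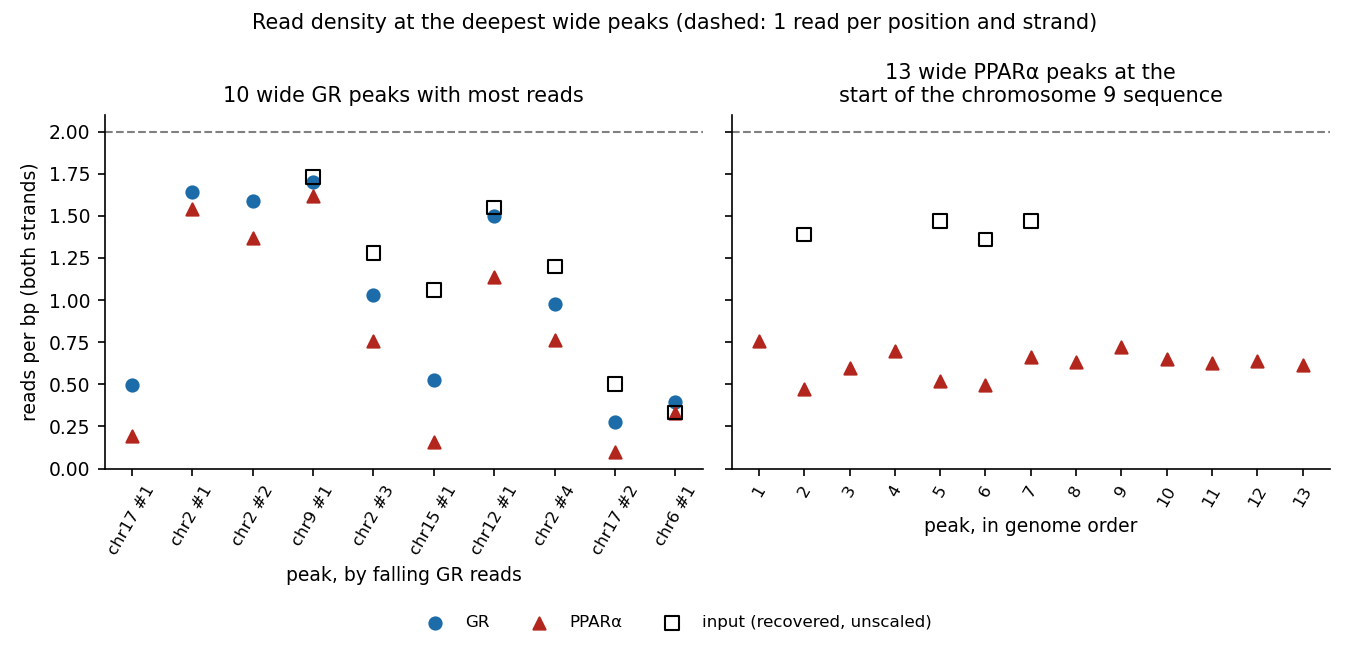
Reads per bp over both strands (vertical) in the 10 wide GR peaks with most reads (left, GR circles, PPARα triangles, input squares) and in the 13 wide PPARα peaks at the start of the chromosome 9 sequence (right). The dashed line at 2 is 1 read per position and strand. Input density is recovered from the score without scaling and is missing where the score is at its highest value. On chr9 #1 the 3 libraries lie together at 1.62 to 1.73, whereas on chr15 #1 they lie apart at 0.158, 0.526 and 1.06.

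Other deep loci were far from that limit, and the densities of the libraries lay further apart or in another order. At chr15:74916672-74917530 the GR library had 452 reads (0.526 per bp), the PPARα library 124 (0.158 per bp) and the input 914 (1.06 per bp). At chr17:13744893-13746068 there were 322 GR and 91 PPARα reads, with 588 input reads. In reads per bp the PPARα library had 0.301 times the GR value at the first and 0.354 times at the second, beside a depth ratio of 0.261. At chr6:3150766-3151564 the GR peak held 314 reads with a fold of 19.2, and the PPARα peaks in it held 213, or 0.393 and 0.329 reads per bp. Input reads there were 266, fewer than GR reads in spite of the greater depth of the input.

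The exception was the start of the chromosome 9 sequence, where only the PPARα list had peaks. Its 13 wide peaks at chr9:3000001-3038400 held 24432 reads, 74.8% of the reads in all wide PPARα peaks. They covered 37816 bp, or 98.5% of the stretch. The widest, chr9:3012550-3019618, was the widest peak of either list, with 7069 bp and 4488 reads. Next came chr9:3020746-3027341 with 4292 reads and chr9:3000001-3005348, which starts at the first position of the stretch, with 4063. Densities were even, at 0.472 to 0.760 reads per bp, and folds lay between 14.2 and 21.4. Scores were at the cap for 9 of the 13. In the other 4 the background was 84.5 to 91.6 times the genome-wide value, which corresponds to 1.36 to 1.47 input reads per bp. For 2 of these 4 the recovered input count was not whole, so the caller may have taken it from a wider window than the peak. GR reads in this stretch are not in the lists, and whether the GR library had fewer reads there was not tested.

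Matching the lists gave different pictures from either side. Of the wide GR peaks, 71 of 129 (55.0%, interval 46.0 to 63.8%) overlapped a PPARα peak of any width, where 64.9% of all GR peaks did. A wide PPARα peak was overlapped by 44 (34.1%), where 5.7% of all GR peaks overlapped one. Of the wide PPARα peaks, 63 of 78 (80.8%, interval 70.3 to 88.8%) overlapped a GR peak, where 46.3% of all PPARα peaks did. A wide GR peak was overlapped by 49 (62.8%), where 5.39% of all PPARα peaks overlapped one. Long peaks meet others more easily than short ones, and the part of length in these shares was not tested. Outside the chromosome 9 stretch, 63 of 65 wide PPARα peaks had a GR partner (96.9%, interval 89.3 to 99.6%). The 2 without one were chr4:84385315-84385524, given above, and chr11:3068602-3069165 with 32 reads, a fold of 5.65 and a background of 22.2 times. These intervals reflect the number of peaks counted and nothing else.

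Overlaps with a wide member formed 85 separate loci, of which 44 were wide in both lists, 27 in the GR list only and 14 in the PPARα list only. The reads of each library are known only within the peaks called for it, and these intervals differ in width between the lists. At these loci the ratio of PPARα to GR reads had a median of 0.85 (exact 95% interval 0.76 to 0.934), beside a ratio of library depths of 0.261. At the 39 loci of low GR background its median was 1.06 (interval 0.96 to 1.30), with a range of 0.591 to 2.00. The median was 1.00 at the 25 of these that were wide in the GR list. Where a locus was wide in the PPARα list only, its GR background is that of narrower GR peaks, for which recovery is less sure. At the 9 loci of middle background the median was 0.915. At the 34 loci of high background it was 0.40 (interval 0.257 to 0.671), with a range of 0.0667 to 0.904. At the 18 of these that were wide in both lists the median was 0.579.

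Part of this spread lies in the widths. The length called for PPARα over that for GR had a median of 1.06 at loci of low background and 0.614 at loci of high background. In reads per bp of each list's own peaks the ratio had a median of 0.984 (interval 0.947 to 1.11) at low loci, 1.09 at middle loci and 0.719 (interval 0.553 to 0.842) at high loci. It was at or below 2 times the depth ratio at 1 of 39 low, 0 of 9 middle and 9 of 34 high loci. The lowest ratio on either scale was at chr16:11144002-11144405. The GR library had 105 reads over 404 bp there (0.260 per bp), and the PPARα library 7 reads over 118 bp (0.0593 per bp). At chr4:118220145-118221344 the GR peak held 241 reads over 1200 bp (0.201 per bp) and the PPARα peak inside it 26 reads over 278 bp (0.0935 per bp).

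Among the loci of high background, the 8 whose GR summit exceeded 80% of its duplicate limit had a median ratio of reads of 0.805. The other 26 had a median of 0.291. In reads per bp these medians were 0.787 and 0.661. Loci are not replicates, and the lists share their input, so these medians describe 1 pair of libraries. In the 18 pairs of wide peaks with high background, the background recovered from the PPARα list was 1.08 times that from the GR list (median, interval 1.02 to 1.19, up to 1.53). In most of the 21 pairs of low background the caller's minimum set both values, and the ratio was 1.0. It was 1.36 at chr10:12408688, 1.27 at chr16:21354145 and 0.887 at chr3:109132420. The ratio of 1.3 at chr17:83717795 rests on the recovered GR background of 0.811 times, which is off as given above.

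**Figure D4:**
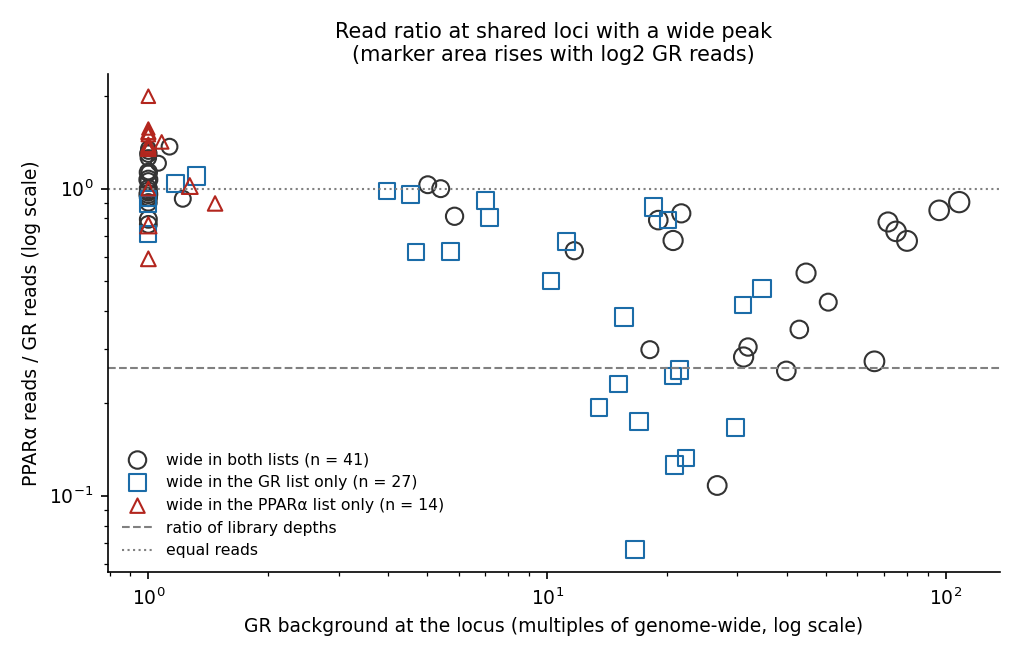
Ratio of PPARα to GR reads, each counted in its own peaks (vertical, log scale), against the GR background (horizontal, log scale) at the 82 shared loci with a recovered GR background. Symbols show in which list the locus was wide, and symbol area rises with GR reads. Loci at the genome-wide background lie around the dotted line of equal reads, and many loci above 10 times lie at or near the dashed line of the depth ratio, 0.261.

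Edges of the peaks were compared in the 49 pairs in which both lists had a wide peak. Their width ratio, PPARα over GR, had a median of 0.929 (interval 0.844 to 0.962), and in 27 of 49 pairs (55.1%) both edges lay within 50 bp of each other. In the 21 pairs of low background the median width ratio was 0.976, and both edges lay that close in 14. In the 19 pairs of high background it was 0.842 (lower quartile 0.457), with both edges that close in 8. In the 6 pairs with a GR score at the cap it was 0.304, but these pairs came from 3 GR peaks. The GR peak at chr17:39979900 met 4 PPARα peaks, with ratios of 0.041 to 0.423. The capped pairs on chromosome 2 had ratios of 0.987 and 0.984. Over all pairs the width ratio ranged from 0.041 to 1.97. Over all 111 overlapping pairs with a wide member, the summits lay a median of 12 bp apart (interval 6 to 54 bp). The medians were 13 bp in the low class and 9 bp in the high class. Summits of wide peaks were rarely at the exact middle of the interval. They fell within 1 bp of the midpoint in 2 of 129 wide GR peaks and 0 of 78 wide PPARα peaks, where 37.7% of the narrower GR peaks and 59.2% of the narrower PPARα peaks had such a summit. A window of fixed size is a smaller part of a wide peak, so the width that chose the members lowers this share by itself. The part of width was not tested. The height at the summit, PPARα over GR, had a median ratio of 0.941 at loci of low background and 0.54 at loci of high background. Heights of narrower peaks, for which recovery is less sure, entered these ratios where a locus was wide in 1 list only.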

How the data were processed

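Peak lists of 1 GR and 1 PPARα library were used. Per the submitters' processing notes, cutadapt and Bowtie were used, with mm9 as the build. No version of either is named in the sources used. The authors called peaks with MACS 1.4.2, per the file headers, for each library against 1 input, at a p cutoff of 1.00e-05, with 1 read kept per position. The deposited tables give, per the file headers, a count of reads per peak, a score (the caller's p as a negative log10, times 10), a fold ratio and, in percent, an FDR. The score column of the GR table bears a spreadsheet error as its name and was taken by place. The authors' shorter lists were found to hold the peaks with a fold of 10 or more.

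The score was solved for the Poisson mean of the reads in the peak, which gives the background, the summit height (fold times background per fragment length, 42 bp for GR and 38 bp for PPARα) and the unscaled input reads. In narrower peaks only 65.0% (GR) and 43.6% (PPARα) of heights came out whole, so single peaks were classed by background only if wide. Shared loci with a wide member also drew backgrounds and heights from their narrower peaks, where recovery is less sure. The solver was tested on simulated data. Regions were named by rule: in each list the 10 with most reads, the 5 widest, the 5 of highest fold, those at the highest score, loci wide in both lists with at least 100 reads, the 3 named stretches and 3 widths on each side of the limit. Of these, the ones that show a finding are printed. Others were named as the largest or lowest of a class after their values were seen. Members and lists were chosen with earlier results of these data known. Shares have exact Clopper-Pearson 95% intervals and medians exact order-statistic 95% intervals, for counting error only. With 1 library per antibody no test was made. Genes, promoters and sequences were not used here, since the reference tables are of another build. Computing used scipy 1.17.1, pandas 2.3.3, numpy 2.4.6, networkx 3.6.1 and matplotlib 3.10.9 under Python 3.11.15.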

Additional observations from a re-analysis of the deposited data

How the results depend on the processing

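Of 66 values computed under other limits of width, fold, FDR and overlap, without the 3 named stretches or on autosomes, 18 moved by more than their interval or by over 1.5 times, and 48 did not. At a width of 150 bp there were 256 GR and 132 PPARα members, with a fold below the smallest callable one in 37.1% of either list. At 300 bp there were 60 GR and 41 PPARα members, such folds made up 70.0% and 70.7%, 65.9% of the PPARα members overlapped a GR peak, and the median read ratio was 0.726. With a fold of at least 10 there were 80 GR members, 21.2% of them with such a fold. Then 63.2% of PPARα members overlapped a GR peak and 42.6% a wide one, and the read ratio was 0.968. At an FDR of at most 5%, 69.2% of PPARα members overlapped a GR peak. Without the 3 named stretches this was 96.5%, and 29.8% of PPARα members had a fold below the smallest callable one. Alternatives chosen after seeing the data (other background limits, other choices of loci, reads per bp) gave 16 values, of which 15 stayed within their intervals. The exception was the median read ratio at loci of high background, 0.40 from reads and 0.719 from reads per bp. No paired analysis was possible because each antibody had 1 library and no result comes from a test. The PPARα library was the shallower one, and no PPARα peak held fewer than 4 reads.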
